A study of Mus musculus with 192 samples.

Results

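Lin28a, Lin28b, Trim71 and Hmga2 encode proteins whose mRNAs are known targets of the let-7 family of miRs, and they are described here over retinoic acid (RA) differentiation of mouse embryonic stem cells (mESCs). The 4 genes were chosen by name, out of 45191 gene identifiers listed in every total RNA library, and were set beside the 9 mature 5p miRs that carry the let-7 seed, out of 1978 listed miRs. In GRCm38 all 4 lie on the minus strand: Lin28a (ENSMUSG00000050966) at chr4:134003330-134018841, Lin28b (ENSMUSG00000063804) at chr10:45376620-45486395, Trim71 (ENSMUSG00000079259) at chr9:114507133-114564369 and Hmga2 (ENSMUSG00000056758) at chr10:120361275-120476469. Lin28a, Lin28b and Hmga2 were measured in nuclear, cytoplasmic and total RNA. Trim71, on chromosome 9, was read in total RNA and in transfected mESCs only, because the nuclear and cytoplasmic values used here covered no gene of that chromosome.

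LIN28A and LIN28B are RNA-binding proteins that bind let-7 precursors and block their maturation, and let-7 in turn represses the mRNAs of both, so that each side of the loop holds the other down. TRIM71, first described as LIN-41 in the worm Caenorhabditis elegans, is an RNA-binding repressor of mRNAs in stem cells, and HMGA2 is a chromatin protein of the embryo that bends DNA and falls silent in most adult tissue. In embryonic development, LIN28, TRIM71 and HMGA2 mark early stages and mature let-7 marks later ones.

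E14 mESCs, an established line kept in 2i medium with LIF, were moved to N2B27 medium with 0.25 µM all-trans RA and collected at 8 times (0 h, then 6, 12, 24 and 36 h, and later 48, 72 and 96 h), and no group carried a genetic change. Nuclear and cytoplasmic poly(A) RNA came from 3 differentiation runs (runs 5, 6 and 7, with n = 3 at each time), total RNA from 14 unsorted libraries of runs 1, 2 and 3, and small RNA from 4 runs at each time (runs 3, 5, 6 and 7, with run 4 in place of run 3 at 6 and 12 h). At 96 h the cells of run 1 were also sorted into XEN (extraembryonic endoderm-like, PDGFRA-positive and CD24-negative) and ECT (ectoderm-like, CD24-positive and PDGFRA-negative) cells, with 1 library each. In a separate experiment, undifferentiated mESCs received 1 of 14 miR mimics for 24 h or 1 of 14 miR inhibitors for 48 h. The concentrations, 100 nM for mimics and 200 nM for inhibitors, are those of the transfection mix before it was added to the medium. Scrambled and untreated controls were included in 3 batches. The paper's transfection methods describe fixing the collected cells and point to flow cytometry, without saying whether the cells used for RNA were fixed.

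The mature sequences are shown because the let-7 miRs compared below share 1 seed and differ elsewhere by as little as 1 base. They come from RefSeq (GRCm38.p6), are written 5′ to 3′, and have the seed (bases 2 to 8) in capitals.
let-7a-5p: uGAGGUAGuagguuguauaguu
let-7b-5p: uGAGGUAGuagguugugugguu
let-7c-5p: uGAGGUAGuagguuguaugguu
let-7d-5p: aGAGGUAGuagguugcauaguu
let-7e-5p: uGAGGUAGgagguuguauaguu
let-7f-5p: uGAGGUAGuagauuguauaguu
let-7g-5p: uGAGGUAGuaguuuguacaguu
let-7i-5p: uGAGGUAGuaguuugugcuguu
miR-98-5p: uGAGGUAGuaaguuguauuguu
miR-99a-5p: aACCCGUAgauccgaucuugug
miR-100-5p: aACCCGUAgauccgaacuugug

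miR-99a-5p and miR-100-5p are printed with them because they share a second seed, ACCCGUA, and were among the 14 transfected miRs. The letters opposite both seeds were then searched on the transcript strand of the longest annotated 3′UTR of each gene. The seeds of the other transfected miRs were not searched, and this pair was taken up after its values had been seen. The let-7 match CTACCTC occurred 2 times in Lin28a and 4 times each in Lin28b, Trim71 and Hmga2. At least 1 match occurred in 10.1% of 21123 genes with a 3′UTR, in 20.4% of the 3923 genes whose 3′UTR was 2500 to 6000 bases long, the span that holds all 4 members, and at least 3 matches in 0.175% of all genes. Of the genes with a 3′UTR of that length, 3.49% had at least 2 matches. An A, which completes the form opposite the first base of the miR, followed all 4 matches in Trim71, both in Lin28a and 1 each in Lin28b and Hmga2. The miR-99/100 match TACGGGT occurred once in Trim71 and not in the other members' 3′UTRs, and it occurred in 1.2% of all genes with a 3′UTR and in 2.37% of those of that length. A match is a description of letters and not a measured site.

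One let-7 match of each gene and the miR-99/100 match of Trim71 are given with the matched letters in capitals, all on the minus strand of GRCm38 and with 11 bases on either side.
Lin28a let-7 match, chr4:134005179-134005207: agcctgttgaaCTACCTCatttttgccga
Lin28b let-7 match, chr10:45381012-45381040: gggcgggaagtCTACCTCatgcaagcaca
Trim71 let-7 match, chr9:114512462-114512490: ttgcctaagtcCTACCTCagcttaaattt
Hmga2 let-7 match, chr10:120364214-120364242: acattcaatttCTACCTCagcatcagttg
Trim71 miR-99/100 match, chr9:114508226-114508254: aaaactggtgtTACGGGTcagcaatccag

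Depth and cell state set the frame for the values that follow. Total counts were 6860445 to 30624931 in nuclear libraries, 9119525 to 21652592 in cytoplasmic libraries, 29302890 to 36284737 in single-end and 12608563 to 13632562 in paired-end total RNA libraries, and 1046530 to 16869750 in small RNA libraries. Levels are given as CPM, read counts scaled to 1000000 per library after TMM scaling (without TMM in the sorted libraries). The 36 h and 48 h total RNA libraries of run 1 were nearly equal, with a spread between them of 1.201 in units of counting noise, where the second-closest pair had 10.86, and the calls of Lin28a and Lin28b at both times held without either library. In cytoplasmic RNA at 96 h against 0 h, 9 of 9 tested markers of naive mESCs fell, 12 of 13 XEN markers rose and 5 of 6 ECT markers rose. All unsorted libraries hold mixed cells, so fewer cells of a type and less RNA per cell cannot be told apart. How pure the sorted libraries were was not tested.

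Lin28a rose within 6 h of RA and stayed high. In cytoplasmic RNA it had 244, 254 and 257 CPM at 6 h, against 52.1, 51.0 and 39.2 CPM at 0 h, a log2 fold change of 2.44 (SE 0.0856, edgeR adjusted p = 1.5e-15). The lowest 6 h library was thus above the highest 0 h library by more than the whole spread of either group. Mean levels were 47.4 ± 7.16, 252 ± 6.88, 235 ± 12.5, 273 ± 6.20, 426 ± 7.02, 567 ± 7.41, 707 ± 43.5 and 651 ± 13.7 CPM from 0 to 96 h (SD, n = 3). The change came in 2 steps, one before 6 h and one between 24 and 72 h, with a plateau from 6 to 24 h. Every later time was above 0 h, with log2 fold changes from 2.32 at 12 h to 3.89 at 72 h.

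Lin28b followed later and from a far lower start. It had 98.0, 102 and 82.2 CPM in cytoplasmic RNA at 96 h, against 2.29, 2.50 and 2.24 CPM at 0 h (log2 fold change 5.29, SE 0.371, edgeR adjusted p = 2.0e-11). At 6 and 12 h it did not pass the test, with 0.634, 2.76 and 3.17 CPM at 6 h, on both sides of the 0 h libraries, and 4.36, 2.73 and 2.86 CPM at 12 h, all slightly above them (adjusted p = 0.79 and 0.39). From 24 h on it was called at every time, with means of 6.48 ± 0.67, 10.2 ± 3.45, 20.5 ± 1.66, 46.8 ± 19.8 and 94.1 ± 10.54 CPM at 24, 36, 48, 72 and 96 h (SD, n = 3). The libraries of 72 and 96 h did not overlap, while 1 library at 36 h (6.25 CPM) lay among the 24 h libraries.

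Hmga2, the chromatin protein, went through a rise, a fall and a second rise. It had 129, 146 and 124 CPM in cytoplasmic RNA at 6 h, against 85.5, 87.6 and 92.2 CPM at 0 h (log2 fold change 0.62, SE 0.121, edgeR adjusted p = 0.00034). At 36 h it had 51.3, 50.4 and 51.7 CPM, below every 0 h library (log2 fold change −0.81, edgeR adjusted p = 1.0e-05). At 96 h it had 180, 230 and 232 CPM, above every 0 h library (log2 fold change 1.23, edgeR adjusted p = 6.1e-09). The fall was also called at 24 h (−0.67) and 48 h (−0.62), the rise at 72 h (0.55), and 12 h lay between with a log2 fold change of −0.26 (adjusted p = 0.10).

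Of 21 comparisons of these 3 genes with 0 h in cytoplasmic RNA, 18 were called at an adjusted p under 0.05. Calls were common in this time course: 33.4% of the 11675 tested genes were called at 6 h, 34.3% at 12 h, 43.8% at 24 h, 50.6% at 36 h, 57.1% at 48 h, 65.4% at 72 h and 67.7% at 96 h. The last share was made up of 33.3% that rose and 34.4% that fell. On the length-corrected TPM scale, the order of the 3 genes changed with time. At 0 h the level in cytoplasmic RNA was 28.6 TPM for Hmga2 (27.8 to 29.5 over 3 libraries), 17.9 TPM for Lin28a (13.4 to 22.11) and 0.517 TPM for Lin28b (0.47 to 0.55). At 96 h it was 281 TPM for Lin28a (277 to 285), 84.9 TPM for Hmga2 (73.4 to 91.3) and 25.5 TPM for Lin28b (21.9 to 27.5), with no overlap between neighbours at either time.

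**Figure D1:**
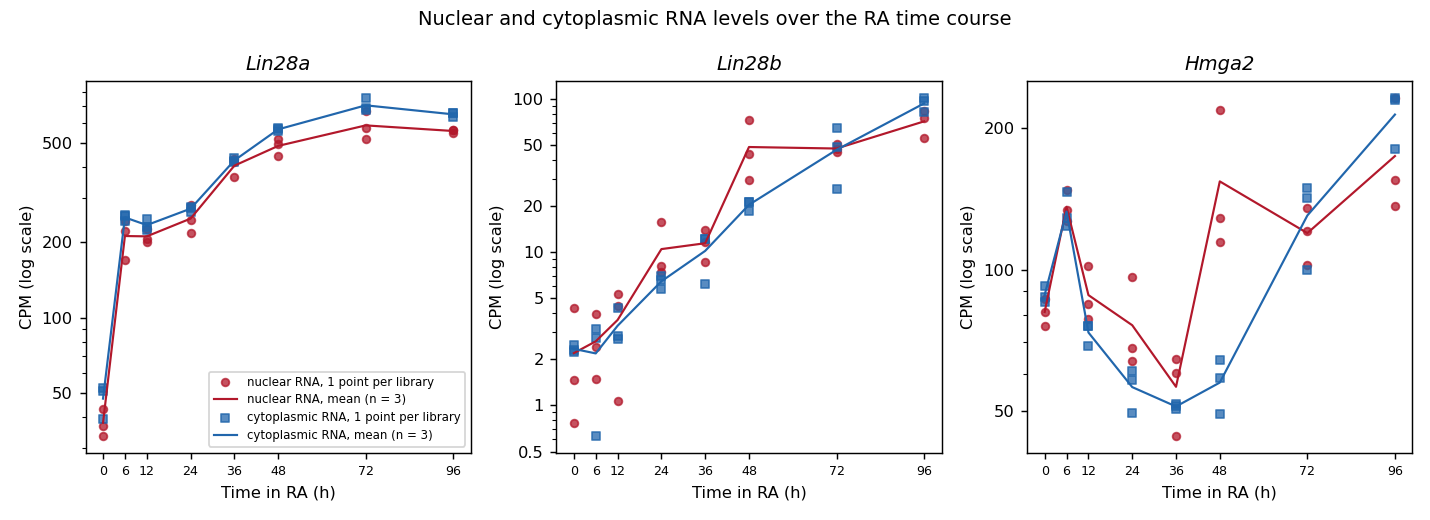
CPM on a log axis (y) against hours in RA (x) for Lin28a, Lin28b and Hmga2, with 1 point for each nuclear (circles) and cytoplasmic (squares) library and lines through the means of 3 libraries. Lin28a rises before 6 h and again after 24 h, Lin28b rises from 24 h on, and Hmga2 is lowest at 36 h; at 48 h the 3 nuclear libraries lie at 115 to 219 CPM for Hmga2 and the 3 cytoplasmic libraries at 49.4 to 64.3 CPM.

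In nuclear RNA the same 3 genes gave 17 calls among 21 comparisons with 0 h, of which 16 were rises. The shares of all 11934 tested genes called were 20.3%, 23.9%, 29.5%, 38.9%, 45% (48 h), 53.2% and 55.5% from 6 to 96 h. Lin28a had 548, 564 and 563 CPM at 96 h, against 36.9, 43.3 and 33.7 CPM at 0 h (log2 fold change 3.88, SE 0.139, edgeR adjusted p = 1.3e-16), and was called at each time. Lin28b had 55.7, 84.5 and 75.4 CPM at 96 h, against 4.35, 0.771 and 1.47 CPM at 0 h (log2 fold change 5.13, SE 0.540, edgeR adjusted p = 2.0e-08), and was called from 24 h on. Hmga2 had 137, 155 and 232 CPM at 96 h, against 76.0, 81.4 and 86.4 CPM at 0 h (log2 fold change 1.11, edgeR adjusted p = 0.00011). Its nuclear fall was called at 36 h only (−0.55, edgeR adjusted p = 0.045), a call lost in 5 of the 6 fits that left out 1 library of the compared times, and its rise at 72 h (0.59, edgeR adjusted p = 0.024) was lost in 4 of 6.

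The 2 fractions were then set against each other to compare the level of each mRNA in nuclear and in cytoplasmic RNA. Over all 8 times, Lin28a was slightly lower in nuclear than in cytoplasmic RNA, by a log2 difference of −0.19 (SE 0.0369, edgeR adjusted p = 0.00011), and was higher in the nucleus in only 2 of 24 pairs of libraries of the same run and time. The corresponding difference was 0.27 for Lin28b (adjusted p = 0.19) and 0.23 for Hmga2 (edgeR adjusted p = 0.0048), and 31.1% of 11817 genes were called in this comparison. The Hmga2 call was lost without nuclear run 7 (0.12, adjusted p = 0.0569) or without cytoplasmic run 5 (0.18, adjusted p = 0.0596). CPM in each fraction are relative to that fraction's own RNA and do not give the share of molecules in it. The paper names it as possible that the separation was not very effective and left cytoplasmic RNA in the nuclear fraction.

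At 48 h, Hmga2 and Lin28b stood higher in nuclear than in cytoplasmic RNA. Hmga2 had 129, 115 and 219 CPM in nuclear RNA at 48 h, against 49.4, 58.9 and 64.3 CPM in cytoplasmic RNA of the same runs, so that the lowest nuclear library was above the highest cytoplasmic one (log2 difference 1.45, SE 0.186, edgeR adjusted p = 4.7e-06). Lin28b had 43.9, 29.5 and 73.0 CPM in nuclear RNA, against 18.6, 21.5 and 21.4 CPM in cytoplasmic RNA (log2 difference 1.285, SE 0.397, edgeR adjusted p = 0.033), a call that was lost in 4 of the 6 fits that left out 1 library of that time (lowest value 0.87, adjusted p = 0.243). Lin28a was at −0.20 (adjusted p = 0.26). At 48 h, 4.69% of genes were called higher in the nucleus. At the other 7 times edgeR called none of the 3 genes, with 0.635% of all gene comparisons called, and over all 24 combinations of gene and time 6 had an unadjusted p under 0.05.

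The change of Hmga2 to 48 h differed between the fractions. Its log2 fold change was 0.95 (edgeR adjusted p = 0.00082) in nuclear RNA, against −0.62 (edgeR adjusted p = 0.00017) in cytoplasmic RNA, and the difference of the 2 changes was 1.54 (SE 0.259, edgeR adjusted p = 0.0035), with 0.381% of 11817 genes called. This was the only one of 21 such differences (3 genes at 7 times) that was called, and 48 h was singled out after the values had been seen. Without nuclear run 7, the highest library, the difference was 1.22 (adjusted p = 0.0313). The 48 h nuclear libraries held 6860445 to 10906609 counts and the cytoplasmic ones 9421101 to 10747419. Summed XEN markers (13 listed genes) were at 1195 to 1254 CPM in nuclear RNA and 1131 to 1565 CPM in cytoplasmic RNA of that time, and summed ECT markers (6 listed genes) at 309 to 355 CPM in nuclear RNA and 305 to 350 CPM in cytoplasmic RNA, so neither of these 2 sums separated the fractions. Summed markers of the 2-cell-like state (2 listed genes) did not overlap, at 18.4 to 31.9 CPM in nuclear RNA and 15.3 to 18.35 CPM in cytoplasmic RNA. Of the 45 genes called for a difference of the 2 changes, 44 were higher in nuclear RNA. The part of either in the Hmga2 value was not tested.

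**Figure D2:**
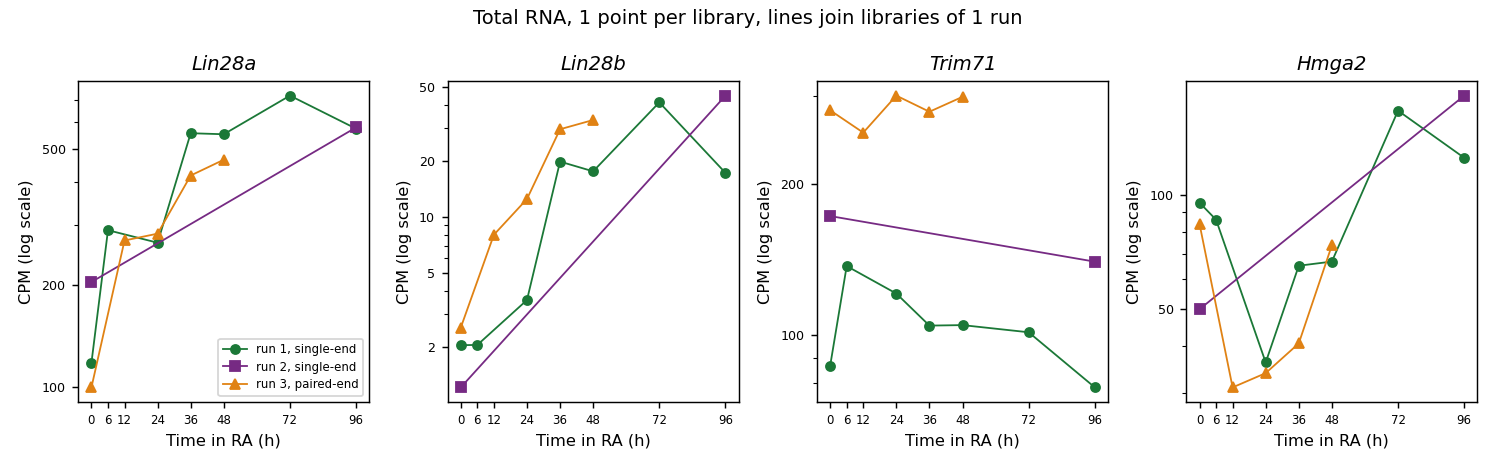
CPM on a log axis (y) against hours in RA (x) for the 4 genes in unsorted total RNA, with 1 point per library and lines joining the libraries of runs 1 and 2 (single-end reads) and run 3 (paired-end reads). Lin28a and Lin28b end above their 0 h level in each run, Hmga2 is lowest at 24 h in run 1 and at 12 h in run 3, and Trim71 lies at 78.5 to 137 CPM in run 1, at 140 to 173 CPM in run 2 and at 253 to 300.3 CPM in run 3.

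Trim71 passed the edgeR test at no time of the course. In run 1 it had 86.7, 137, 121, 104, 104.5, 101 and 78.5 CPM at 0, 6, 24, 36, 48, 72 and 96 h, in run 2 it had 140 CPM at 96 h against 173 CPM at 0 h, and in run 3 it had 281, 253, 300.3, 279 and 299 CPM at 0, 12, 24, 36 and 48 h. The level at 0 h ran from 86.7 to 281 CPM over runs 1, 2 and 3, a wider span than between any 2 times within a run. Run 3 differs from runs 1 and 2 in read layout and aligner, while runs 1 and 2 share both. Times were therefore compared within runs. With run in the model, the log2 fold changes of Trim71 against 0 h lay between −0.32 (SE 0.119) at 96 h and 0.51 (SE 0.151) at 6 h. None of the 7 was called by edgeR (adjusted p = 0.056 at 96 h and 0.20 at 6 h), 3 had an unadjusted p under 0.05, and DESeq2 called the 96 h value (−0.33, adjusted p = 0.0401). On the deposited TPM scale, Trim71 was at 9.85 TPM at 96 h against 8.35 TPM at 0 h in run 1 and at 23.6 TPM at 96 h against 23.7 TPM at 0 h in run 2, so its direction in run 1 depended on the scaling.

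In total RNA, Lin28a and Lin28b were also higher at 96 h than at 0 h. Lin28a had 575 and 580 CPM at 96 h in runs 1 and 2, against 118 and 204 CPM at 0 h (log2 fold change 1.79, edgeR adjusted p = 0.015). Lin28b had 17.2 and 44.8 CPM, against 2.04 and 1.21 CPM (log2 fold change 4.20, edgeR adjusted p = 0.0071). Hmga2 had 125 and 183 CPM, against 95.4 and 49.98 CPM, and this did not pass the test on runs 1 and 2 alone (log2 fold change 1.03, edgeR adjusted p = 0.092). Of all genes, 29.7% were called in that comparison.

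With run in the model over all 14 unsorted libraries, 13 of 28 comparisons of the 4 genes with 0 h were called, 12 of them rises, beside 27.7% of all gene and time comparisons. At 6, 12 and 72 h there was 1 library each, which is assumed to vary like the other times, and 3 of the calls rest on such a library (Lin28a at 12 and 72 h and Lin28b at 72 h). The calls were Lin28a from 12 h on, Lin28b from 24 h on, and Hmga2 at 24 h (fell by 1.15 on the log2 scale, edgeR adjusted p = 0.047) and 96 h (1.03, edgeR adjusted p = 0.034). Among fits that left out 1 library, the call of Lin28a was lost in 2 at 12 h (adjusted p = 0.068 and 0.15) and in 1 at 24 h (adjusted p = 0.0655), and that of Lin28b at 24 h in 3 (lowest value 1.283, adjusted p up to 0.216). The 24 h call of Hmga2 was lost in 4, and its 96 h value was 0.34 without run 2 at 0 h (adjusted p = 0.315) and 0.35 without run 2 at 96 h (adjusted p = 0.308). Without run in the model the count was 8. Hmga2 was at 36.2 CPM in run 1 and 33.9 CPM in run 3 at 24 h, against 95.4 and 83.9 CPM at 0 h of the same runs. The cytoplasmic rise of Hmga2 at 6 h had no counterpart call in total RNA, where the single 6 h library had 86.0 CPM, against 95.4 CPM at 0 h of that run (log2 fold change with run in the model 0.04, edgeR adjusted p = 0.98). Lin28a was not called at 6 h in total RNA either. It had 289 CPM in that library, against 118 CPM at 0 h of the same run, a ratio of 2.45.

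Mature let-7 fell while Lin28a and Lin28b rose. The summed level of the 9 miRs was 1517, 1145, 1365 and 1557 CPM in runs 3, 5, 6 and 7 at 96 h, against 12956, 19892, 17973 and 23802 CPM at 0 h, a 13.1-fold lower mean on the log scale (log2 difference −3.72). Each 96 h library was below each 0 h library, and the exact two-sided permutation test gave p = 0.0286, the smallest value that 4 against 4 libraries allow. The mean sum was 18656 ± 4508, 13089 ± 3391, 10977 ± 5026, 7567 ± 3502, 5460 ± 2152, 2892 ± 1330, 1364 ± 239 and 1396 ± 186 CPM from 0 to 96 h (SD, n = 4). Against 0 h, the sum gave p = 0.114 at 6 h, 0.0857 at 12 h and 0.0286 at each later time by the same exact permutation test, and 0.114, 0.1 and 0.04 after Benjamini-Hochberg adjustment over these 7 tests. The test did not pair libraries of a run, so it does not date the start of the fall. In runs 5, 6 and 7 the sum was 14840, 12085 and 16597 CPM at 6 h, each below 0 h of the same run.

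The most abundant member, let-7g-5p, fell furthest on the log scale. It had 369, 360, 391 and 194 CPM at 96 h, against 7638, 11204, 9971 and 12642 CPM at 0 h (log2 fold change −5.02, SE 0.655, edgeR adjusted p = 3.2e-06). It made up 12.5 to 31.4% of the summed let-7 level at 96 h and 53.1 to 59% at 0 h. Its hairpin lies in an intron of Wdr82, whose product is a subunit of a histone methyltransferase complex and which fell to 132.5 to 143.8 CPM in total RNA at 96 h, against 236.1 to 250.1 CPM at 0 h (runs 1 and 2, log2 fold change −0.87, SE 0.225, edgeR adjusted p = 0.036).

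Called falls spread through the family in the second day. No let-7 miR was called at 6, 12 or 24 h by edgeR (1, 2 and 4 of 9 had an unadjusted p under 0.05, and DESeq2 called 0, 0 and 1). At 36 h only miR-98-5p was called (−2.29, edgeR adjusted p = 0.043), at 48 h 6 of 9 were called, and at 72 and 96 h 8 of 9. Of all 740 tested miRs, 0.676% were called as lower at 36 h, 4.59% at 48 h, 10.7% at 72 h and 12.4% at 96 h. The call of miR-98-5p at 36 h was lost in 7 of the fits that left out 1 library, those of let-7a-5p and let-7b-5p at 48 h in 2 each, and those of let-7i-5p at 72 h in 1 and at 96 h in 3 (adjusted p = 0.0574 to 0.0581). The 8 falls at 96 h ranged from −2.40 (let-7b-5p) to −5.02 (let-7g-5p). In all 24 of 63 comparisons were called, and with run as a block 39. The blocked calls included 3 falls of 9 at 24 h, 7 at 36 h and 8 at each of 48, 72 and 96 h, beside 12.8%, 9.59%, 20.7%, 25.4% and 26.5% of all 740 miRs called as lower at those 5 times in the same fit.

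**Figure D3:**
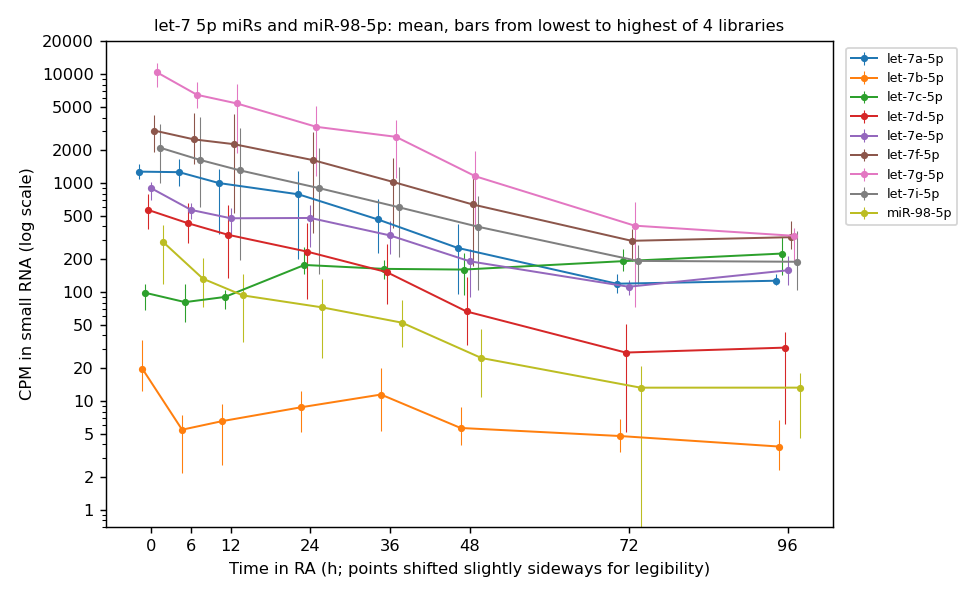
CPM in small RNA on a log axis (y) against hours in RA (x) for the 9 miRs with the let-7 seed, as means of 4 libraries with bars from the lowest to the highest library; the bar of miR-98-5p at 72 h runs off the axis because 1 library held no read. Of these miRs 8 fall, while let-7c-5p ends at 226 CPM at 96 h, against 98.4 CPM at 0 h.

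let-7c-5p was the member that did not fall. It had 320, 145, 168 and 270 CPM at 96 h, against 67.8, 111, 95.8 and 119 CPM at 0 h, so that the lowest 96 h library was above the highest 0 h library (log2 fold change 1.25, SE 0.454, edgeR adjusted p = 0.042, beside 12.8% of all miRs called as higher). With run as a block it was called from 24 h on, with a value of 1.15 (edgeR adjusted p = 0.0028) at 96 h, beside 17.6% of all miRs called as higher in that fit. The call at 96 h was lost in 5 of the 8 fits that left out 1 library (0.97 and adjusted p = 0.164 without run 7 at 96 h). Its sequence differs by 1 base from let-7a-5p and from let-7b-5p, and how reads that match several members were assigned was not tested.

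One of the 2 let-7c hairpins lies beside miR-99a in an intron of Mir99ahg, a long non-coding RNA on chromosome 16, and 1 of the let-7a hairpins lies beside miR-100 on chromosome 9. Mir99ahg was at 2.34 to 3.26 CPM in cytoplasmic RNA at 96 h and at 0 CPM in all 3 libraries at 0 h. In total RNA it was at 0.3986 to 0.5995 CPM at 96 h, against 0.259 to 0.355 CPM at 0 h (log2 fold change 0.64, edgeR adjusted p = 0.52). miR-99a-5p had 7880, 2992, 4142 and 5413 CPM at 96 h, against 3.81, 7.57, 6.20 and 9.86 CPM at 0 h (log2 fold change 9.57, SE 0.86, edgeR adjusted p = 8.0e-09). miR-100-5p had 1723, 247, 540 and 2015 CPM at 96 h, against 3.05, 9.66, 8.49 and 16.6 CPM at 0 h (log2 fold change 7.06, SE 1.18, edgeR adjusted p = 3.9e-05). Both were called from 48 h on, and both miRs were taken up here after their values had been seen. The host of the let-7a-1, let-7d and let-7f-1 hairpins is 6720427I07Rik. It rose to 3.79 to 6.38 CPM in cytoplasmic RNA at 96 h, against 1.37 to 1.77 CPM at 0 h (log2 fold change 1.68, edgeR adjusted p = 0.00057). In total RNA of runs 1 and 2 this host was not called (log2 fold change 2.59, edgeR adjusted p = 0.076). Mature let-7d-5p fell, as did let-7a-5p and let-7f-5p, which also have hairpins outside this host. Spaca6, host of let-7e, was at −0.08 (adjusted p = 0.74), and Huwe1, host of let-7f-2 and miR-98 on chromosome X, at 0.59 in total RNA (adjusted p = 0.25).

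Genes whose products cut, export, tail or degrade let-7 precursors moved in both directions. Of 12 in cytoplasmic RNA at 96 h against 0 h, 5 rose and 1 fell, beside 33.3% of all genes that rose and 34.4% that fell, with a median log2 fold change of 0.06, beside −0.02 over all genes. Prkra, a partner of Dicer, rose to 40.4 ± 3.36 CPM at 96 h, against 10.8 ± 0.973 CPM at 0 h (SD, n = 3 each, log2 fold change 1.86, edgeR adjusted p = 3.1e-10). Dicer1, which makes the final cut, rose by 0.97, and Zcchc11, which adds the uridine tail that LIN28A directs, by 0.53. Dis3l2, the nuclease that degrades tailed precursors, rose by 0.38, and Ran, the GTPase of nuclear export, fell by 0.29 on the log2 scale. In total RNA of runs 1 and 2, 1 of the 12 rose (Prkra, 2.195, edgeR adjusted p = 0.0096) and 0 fell, beside 29.7% of all genes called.

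Among 17 further known let-7 targets tested there, 8 rose and 2 fell, with a median of 0.16, beside the same shares of 33.3% and 34.4% over all genes. Ccnd2, a G1 cyclin, rose to 558 ± 20.9 CPM at 96 h, against 1.14 ± 0.601 CPM at 0 h (log2 fold change 8.90, edgeR adjusted p = 2.2e-19). Fign (4.36), Arid3a (1.67) and Plagl2 (1.51) had the next highest values, Hic2 fell by 0.48 and Cdc34 by 0.20 on the log2 scale. Of 6 tested targets of TRIM71, 3 rose (Hoxa5 3.47, Egr1 1.195, Plxnb2 0.82) and 2 fell, beside those same shares, Inhbb by 3.02 and Cdkn1a, a brake on the cell cycle, by 1.67 on the log2 scale. In total RNA of runs 1 and 2, 6 of 22 let-7 targets rose and 1 fell (Hmga1, by 2.28), beside 29.7% of all genes called. Of 7 TRIM71 targets there, 3 rose and 1 fell (Inhbb), and Cdkn1a was not called (−0.30, edgeR adjusted p = 0.62).

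Sorted XEN cells had less Lin28b, Hmga2 and Trim71 than sorted ECT cells at 96 h, in 1 library each and so without a replicate check. The study's sample table marks both libraries as blacklisted, and 1 label of each names the sorting gate in the opposite way to the extraction notes. CPM are here relative to the unscaled total. Lin28b had 1.80 CPM in XEN (51 counts, exact Poisson 95% interval 1.34 to 2.36) and 53.6 CPM in ECT (51.2 to 56.0), 29.8-fold lower in XEN. Hmga2 had 36.6 CPM in XEN (34.4 to 38.9) and 303 CPM in ECT (297 to 308), 8.28-fold lower in XEN. Trim71 had 57.7 CPM in XEN (55.0 to 60.6) and 114 CPM in ECT (110.5 to 117.5), 1.97-fold lower in XEN. Lin28a had 470.5 CPM in XEN (463 to 479) and 611 CPM in ECT (603 to 619), a ratio of XEN to ECT of 0.770. The intervals cover counting error only.

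The comparison was skewed as a whole: 26.5% of 15088 genes were over 2-fold lower in XEN and 3.82% over 2-fold higher. After TMM scaling of the pair, the ratio of XEN to ECT was 0.948 for Lin28a, 0.0413 for Lin28b, 0.624 for Trim71 and 0.149 for Hmga2, so Lin28b and Hmga2 stayed over 2-fold lower and Trim71 did not. Of the markers, Pdgfra had 678 CPM in XEN and 224 CPM in ECT, Gata6 had 490 CPM in XEN and 142 CPM in ECT, and Cd24a had 18.95 CPM in XEN and 706 CPM in ECT. Over 2-fold differences were found for 9 of 15 XEN markers (higher in XEN) and for 10 of 10 ECT markers (lower in XEN). Before TMM scaling, the remaining XEN markers had XEN to ECT ratios of 1.56 (Gata4), 1.16 (Col4a2), 1.15 (Dab2), 1.11 (Col4a1), 0.868 (Foxa2) and 0.627 (Hnf4a). The ECT library thus also held RNA of XEN markers, with 969 CPM of Dab2, against 1116 CPM in XEN. Fibroblast markers were also over 2-fold lower in XEN, 6 of 6 compared (Acta2 1.73 CPM in XEN and 223 CPM in ECT), as were 4 of 4 compared markers of the 2-cell-like state (Zscan4c 1.09 CPM in XEN and 19.3 CPM in ECT). Of 8 compared markers of naive mESCs, 2 were over 2-fold higher and 3 over 2-fold lower in XEN. Pou5f1 had 29.5 CPM in XEN and 3.01 CPM in ECT. The part of cells with any of these markers in the values of the 4 genes was not tested.

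**Figure D4:**
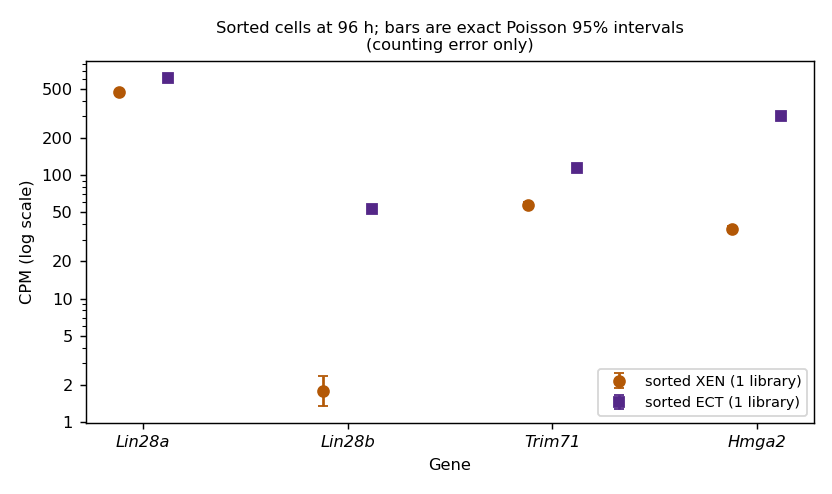
CPM on a log axis (y) of the 4 genes (x) in the sorted XEN (circles) and ECT (squares) libraries at 96 h, 1 library each, with exact Poisson 95% intervals that cover counting error only. The distance between XEN and ECT is widest for Lin28b (1.80 and 53.6 CPM) and narrowest for Lin28a (470.5 and 611 CPM). Both libraries are marked as blacklisted in the study's sample table.

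The transfections ask how single miRs act on these genes in undifferentiated mESCs, and no let-7 miR was among them. At the threshold of an adjusted p of 0.01 used for these data, edgeR called none of 56 comparisons of the 4 genes with scrambled for the mimics, where 3 had an unadjusted p under 0.05 and DESeq2 called 2, and none of 56 for the inhibitors, where 9 had an unadjusted p under 0.05 and DESeq2 called 0. Calls were rare in all genes, at 0.0983% of gene comparisons for mimics and 0.0428% for inhibitors. With batch as a block, 3 comparisons of the 4 genes were called for the mimics and 0 for the inhibitors, beside 0.418% and 0.217% of all gene comparisons in those fits.

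Of those 3, a pair concerned Trim71 with miR-99a-5p and miR-100-5p. Their seed match stands in its 3′UTR, but matches of the other transfected miRs were not searched. With the miR-99a-5p mimic, Trim71 had 167, 212 and 225 CPM, against 289, 330 and 394 CPM with the scrambled mimic of batches 1, 2 and 3 (log2 fold change −0.73, SE 0.147, edgeR adjusted p = 0.012; with batch as a block −0.74 and adjusted p = 4.7e-05). With the miR-100-5p mimic it had 178 and 214 CPM in batches 1 and 2 (log2 fold change −0.78, SE 0.168, edgeR adjusted p = 0.043; with batch as a block −0.74 and adjusted p = 0.00065). The miR-100-5p library of batch 3 was left out, following the methods. All 5 mimic libraries lay below all 3 scrambled libraries, and below the 3 untreated ones, which had 282, 324 and 288 CPM. The DESeq2 adjusted p was 0.0008 for miR-99a-5p and 0.0042 for miR-100-5p. In fits that left out 1 batch, the values stayed between −0.66 and −0.93 but none passed (lowest adjusted p = 0.0726).

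The inhibitors of the same miRs left Trim71 at 309, 298 and 284 CPM (miR-99a-5p, log2 fold change 0.08) and at 280, 306 and 291 CPM (miR-100-5p, 0.07), against 274, 294 and 273 CPM with the scrambled inhibitor, so the groups overlapped. In mESCs at 0 h of the time course these miRs were at or below 16.6 CPM, as given above. The third blocked call was Lin28a with the miR-135b-3p mimic, which had 185, 240 and 228 CPM, against 139, 170 and 192 CPM (log2 fold change 0.37, adjusted p = 0.55; with batch as a block 0.37 and edgeR adjusted p = 0.0086). Hmga2 had 81.5, 85.5 and 96.3 CPM with the miR-99a-5p mimic, against 69.1, 92.2 and 105.5 CPM with the scrambled mimic (log2 fold change −0.0048). Over the 14 mimics the log2 fold changes ran from −0.34 to 0.37 for Lin28a, −0.32 to 0.95 for Lin28b, which was at 1.47 to 4.56 CPM with the scrambled mimic, −0.78 to 0.26 for Trim71 and −0.26 to 0.31 for Hmga2. Over the 14 inhibitors they ran from −0.35 to −0.09 for Lin28a, −0.31 to 0.75 for Lin28b, −0.23 to 0.08 for Trim71 and −0.35 to 0.02 for Hmga2, and 7 of the 9 unadjusted p-values under 0.05 were those of Hmga2 (lowest adjusted p = 0.12).

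**Figure D5:**
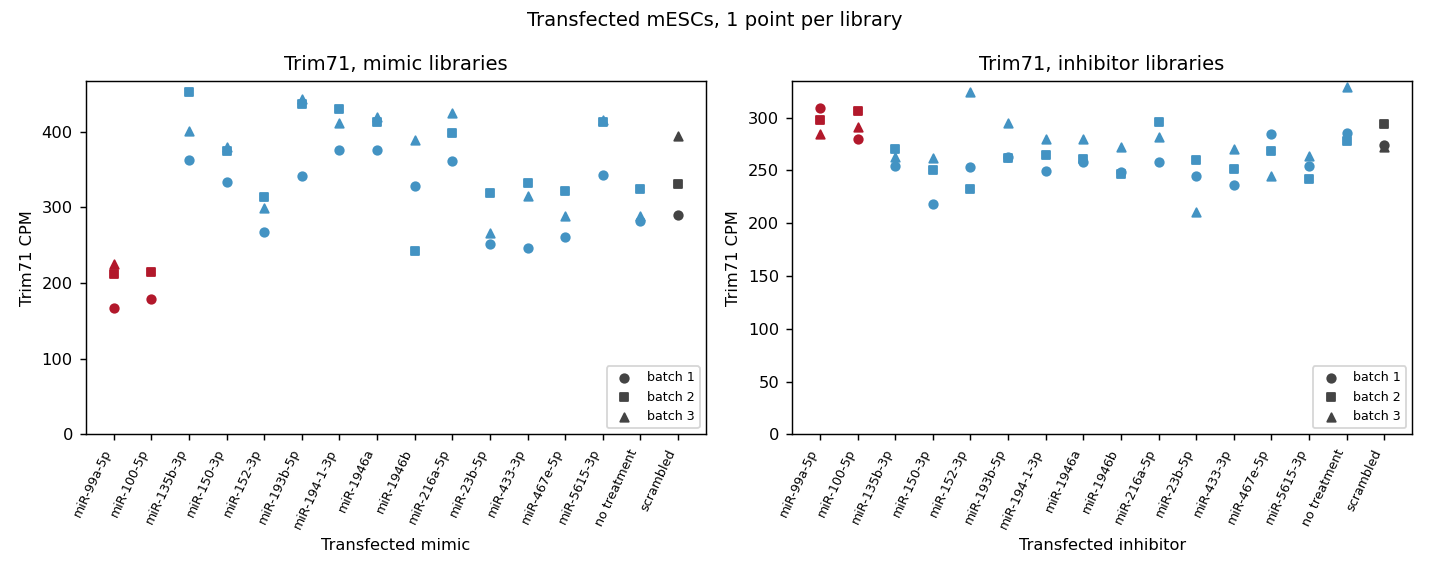
Trim71 level in CPM (y, from 0) in each library of mESCs transfected with 1 of 14 mimics (left) or inhibitors (right), beside untreated and scrambled controls, with 1 point per library and a symbol for each batch. The 3 miR-99a-5p and 2 miR-100-5p mimic libraries (red) lie between 167 and 225 CPM, below the 3 scrambled mimic libraries at 289 to 394 CPM.

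The genes most like each member were ranked by Pearson r of log2 CPM over libraries, as a description, since libraries of 1 time share their state. Over the 24 cytoplasmic libraries and 9502 genes with a mean count of at least 50, they were Col18a1 (0.978), Gja1 (0.970) and Spata13 (0.961) for Lin28a, Selenon (0.984), Cpd (0.982) and Pxdn (0.981) for Lin28b, and Cpxm1 (0.945), Myh9 (0.941) and Shroom3 (0.940) for Hmga2. For Trim71, over 9 single-end total RNA libraries that differ by run, they were Taf3 (0.987), Rbm10 (0.986) and Cmip (0.972) among 13279 genes.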

How the data were processed

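The authors deposited expected counts and TPM per gene, made per the labels with Bowtie2 2.2.6 and RSEM 1.2.28 (single-end total RNA) or with Trimmomatic 0.38, STAR 2.6.1a and RSEM 1.3.1 (all other RNA), on mm10 from stranded libraries, and counts per mature miR made with Bowtie 1.0.0-1. Here expected counts were rounded, the highest row was used where a miR had several precursors, and edgeR 4.0.16 (R 4.3.3) quasi-likelihood tests with TMM scaling and Benjamini-Hochberg adjustment over all features were run on features with a mean count above 10 (20 for transfections), at thresholds of 0.05 and 0.01. Alternatives were DESeq2 1.42.0, its size factors, no filter, a replicate block, left-out libraries and, for the sorted pair, TMM and TPM. Scripts were tested on simulated data. The small RNA, nuclear and cytoplasmic libraries share replicate numbers, which the library names and the study's sample table give as differentiation runs. Deviations from the time means had, within a run, a median correlation of 0.107 (cytoplasmic), 0.143 (nuclear) and 0.747 (small RNA) and lowest values of −0.0296, −0.257 and −0.32, so not every pair of a run deviated together. Named genes were the 4 members, the 9 let-7 miRs, hosts of their hairpins found by coordinates, up to 4 genes per direction of each list by change at 96 h, and the 3 genes most like each member. The members and lists were chosen with earlier results of these data known. A further table of read counts in coding and 3′UTR stretches was left out, because the expected counts were 17.8 to 33.0 times its sums for the median gene of a library and this ratio varied widely among the 4 genes. For both sorted libraries, 1 label names the sorting gate in the opposite way to the extraction notes; groups follow the titles. The study's sample table marks both sorted libraries as blacklisted and not replicates. Columns of no known sample numbered 0.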

Additional observations from a re-analysis of the deposited data

Results flagged for a closer look

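In 96 groups of 4 small RNA libraries (let-7 miRs, their sum, miR-99a-5p and miR-100-5p at each time), 8 held 1 library far from the other 3; chance flags about 1 in 20 groups. Run 7 gave 6 of the 8. At 96 h its library had 6.19 CPM of let-7d-5p (others 37.2 to 42.9), 194 CPM of let-7g-5p (others 360 to 391) and 363 CPM of let-7i-5p (others 105 to 145). At 6 h it had 4083 CPM of let-7i-5p (others 600 to 966) and 15.5 CPM of miR-100-5p (others 1.51 to 3.42), and at 24 h 257 CPM of let-7c-5p (others 148 to 155). The run 3 library had 36.6 CPM of let-7b-5p at 0 h (others 12.5 to 15.8), and the run 4 library had a let-7 sum of 3501 CPM at 12 h (others 12553 to 13960). The falls of let-7d-5p, let-7g-5p and let-7i-5p at 96 h were also called in the fit without run 7, chosen after seeing the data.

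The change of Hmga2 to 48 h differed between nuclear and cytoplasmic RNA by 1.54 on the log2 scale in the test of the difference itself (edgeR adjusted p = 0.0035).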

How the results depend on the processing

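Of the values under the alternatives, 1139 kept their direction and side of the threshold, 63 no longer passed it, 14 newly passed it, 16 moved and 13 changed sign. With the replicate block, the let-7 comparisons called were 39 (24 without it) and all miRs called at 96 h 326 (187 without it), the mimic comparisons of the 4 genes 3 and the genes called in total RNA of runs 1 and 2 at 96 h 7462 (4683 without it). With no replicate block, the total RNA fit over 3 runs called 8 of 28 comparisons in place of 13 and 3857 genes at 96 h in place of 8519, and Trim71 was at −0.42 at 6 h, 0.53 at 12 h and −0.88 at 72 h. DESeq2 called 2 mimic comparisons. Without run 7, a choice made after seeing the data, 281 miRs were called at 96 h. All miRs called as lower were 95 with the block and 0 without it at 24 h, 71 and 5 at 36 h, 153 and 34 at 48 h, 188 and 79 at 72 h, and 196 and 92 at 96 h. All transfection comparisons called were 732 with the block and 172 without it for mimics, and 395 with it and 78 without it for inhibitors. DESeq2 called 9 miRs as lower at 24 h and 19 at 36 h, and the fit without run 7 called 3 and 20, with 66 at 48 h. The block changed no call of Lin28a, Lin28b or Hmga2 in nuclear RNA, in cytoplasmic RNA or between them over all times and at 48 h.

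Leaving out 1 replicate gave 2125 to 4104 genes called between nuclear and cytoplasmic RNA, 5074 to 9086 in the total RNA fit over 3 runs at 96 h, 2519 to 4383 in runs 1 and 2 alone, and a log2 difference of the let-7 sum at 96 h of −3.92 to −3.58 (p = 0.1 in the exact permutation test, the smallest that 3 against 3 allow). Values that were not called changed sign. Lin28b at 6 h ran from −0.62 to 0.37 in cytoplasmic RNA (0.37 without 6 h run 5) and −0.10 to 1.26 in nuclear RNA (−0.10 without 0 h run 6 and −0.015 without 6 h run 5). Nuclear Hmga2 ran from −0.0026 (without 12 h run 7) to 0.20 at 12 h and from −0.32 to 0.011 (without 24 h run 7) at 24 h. In total RNA, Hmga2 at 6 h ran from −0.19 (without 0 h run 2) to 0.30, Trim71 at 12 h from −0.091 to 0.13 (without 0 h run 3), at 72 h from −0.073 (without 0 h run 1) to 0.13, and at 96 h in runs 1 and 2 from −0.75 to 0.28 (without 0 h run 2, and 0.10 without 96 h run 1). The cause of these changes was not tested.

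Lin28b held 10 to 154 counts per nuclear or cytoplasmic library before 24 h, which limits its early values, and 1 library in each arm limits the sorted comparison.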
